A study of Mus musculus with 5 samples.

Results

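The fragments described here are the CpG-poor, methylated pieces of the mouse genome that MspI digestion released from CD8+ T cells, the cytotoxic lymphocytes. A fragment entered when its CpG string held 2 to 4 CpGs, when each clone had 10 or more molecules with a call, and when the non-clonal population had 5 or more on odd and on even line numbers of its file. Members were then chosen by their level on the odd lines, the share of methylated calls, which had to be above 80%. Of 531368 fragments with a CpG string, 246233 had 2 to 4 CpGs, 71026 of these passed the depth rule and 52979 were members (74.6% of the fragments that passed). Members with 2 CpGs numbered 15634, those with 3 CpGs 19729 and those with 4 CpGs 17616. The population was measured on its even lines, which hold other molecules of the same library, and both clones on all their molecules.

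CpG methylation is copied at cell division: the maintenance methyltransferase DNMT1, guided by UHRF1, restores the mark on the newly made strand, so that a CpG is normally methylated on both strands or on neither. Most CpG-poor DNA of a somatic genome is kept methylated, whereas CpG islands are mostly free of methylation. A population holds the states of many cells side by side, while a clone starts from the states of the chromosomes in its founder cell and the changes made since.

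The population, 1 sample, was the non-clonal culture of primary CD8+ T cells from C57BL/6 mice. Clone 1 and clone 2 were each grown from 1 sorted CD8+ cell, with 15 cell divisions in the labels. All groups started as naive splenic T cells stimulated with IL2 in culture, and the age, sex and number of the mice are not given in the labels. Each clone has 2 labelled replicates that share 1 deposited file, so each group is 1 library. Every test therefore compares libraries rather than conditions, with no replicate error behind it. The cell type was taken from the labels, and fragments are named by number, with no gene or position assigned here. The libraries listed between 8463942 and 11969176 molecules, and the median member had 13 molecules with a call on even lines of the population, 33 in clone 1 and 25 in clone 2.

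Mean methylation of the members was nearly the same in the 3 libraries. It was 92.4% on even lines of the population (SD over fragments 8.23), 92.5% in clone 1 (SD 9.52) and 93.2% in clone 2 (SD 9.17). Clone 1 was thus 0.0946 percentage points above the population and clone 2 0.845 points above it. For comparison, over all 160499 fragments that passed the depth rule the clones were 0.958 and 1.70 points above the population. On odd lines, which chose the members, the mean was 93.9%. Members just inside the threshold, at above 80 to 82% on odd lines (1440 fragments), were at 85.2% on even lines, 84.6% in clone 1 and 86.6% in clone 2. Fragments just outside it, at above 78 to 80% (2155 fragments), were at 83.6%, 83.8% and 84.8%.

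Among members, the clones were more spread than the population at both ends. Among the 40981 members with 10 or more molecules in every library, drawing 10 molecules from each gave an expected share with 10 of 10 methylated of 47.4% in the population, against 54.7% in clone 1 and 57.6% in clone 2. At the other end, 0 or 1 of 10 molecules methylated was expected at 0.271% of members in clone 1 and 0.161% in clone 2, against 0.00600% in the population. Members with 4 to 6 of 10 made up 3.59%, 4.97% and 4.30%. The fully methylated and the low members were therefore both more frequent in each clone, while members with 9 of 10 were fewer, at 25.2% and 24.4% against 29.5% in the population. Without equal depth, 344 members lay under 50% in clone 1 and 271 in clone 2, with 28 in both, and 58 did on even lines of the population.

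**Figure D1:**
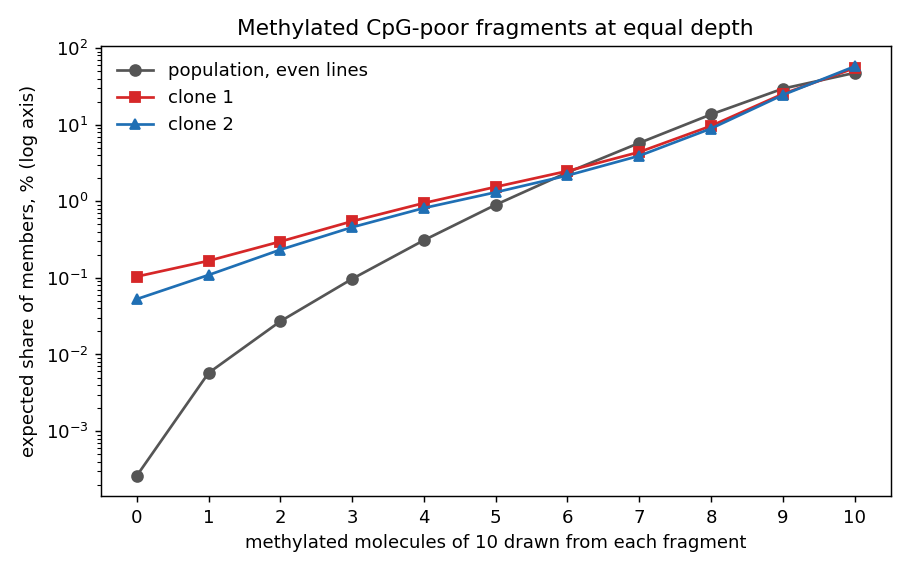
Expected share of 40981 members (vertical axis, percent, log scale) with 0 to 10 methylated molecules of 10 drawn (horizontal axis) in the population's even lines, clone 1 and clone 2. The clones lie above the population at 0 to 5 methylated molecules and at 10, and below it at 7 to 9.

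Cut-site CpGs were more methylated than the CpGs between them in all 3 libraries. MspI cuts at CCGG, so the first and the last CpG of each string are the cut sites, and CpGs between them are inner CpGs. A molecule is read inwards from the cut site at its own start, and the far end, rebuilt in the fill-in reaction, gave few of the calls, from 0.364% in the population to 0.840% in clone 2. In members with 3 CpGs 93.5% of cut-site calls were methylated in the population, against 94.1% in clone 1 and 94.5% in clone 2. The inner CpG of the same fragments stood at 90.7%, 90.4% and 91.5%. In members with 4 CpGs the cut site was at 93.6%, 94.3% and 94.6%, the first inner CpG at 92.0%, 92.0% and 92.9%, and the second inner CpG at 91.9%, 91.6% and 92.6%. The cut sites of members with 2 CpGs, which have no inner CpG, stood at 93.4%, 93.8% and 94.3%. Over members with 10 or more calls of each kind, cut sites were on average 2.45, 3.46 and 2.63 points above inner CpGs at 3 CpGs, and 1.69, 2.39 and 1.75 points at 4 CpGs.

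**Figure D2:**
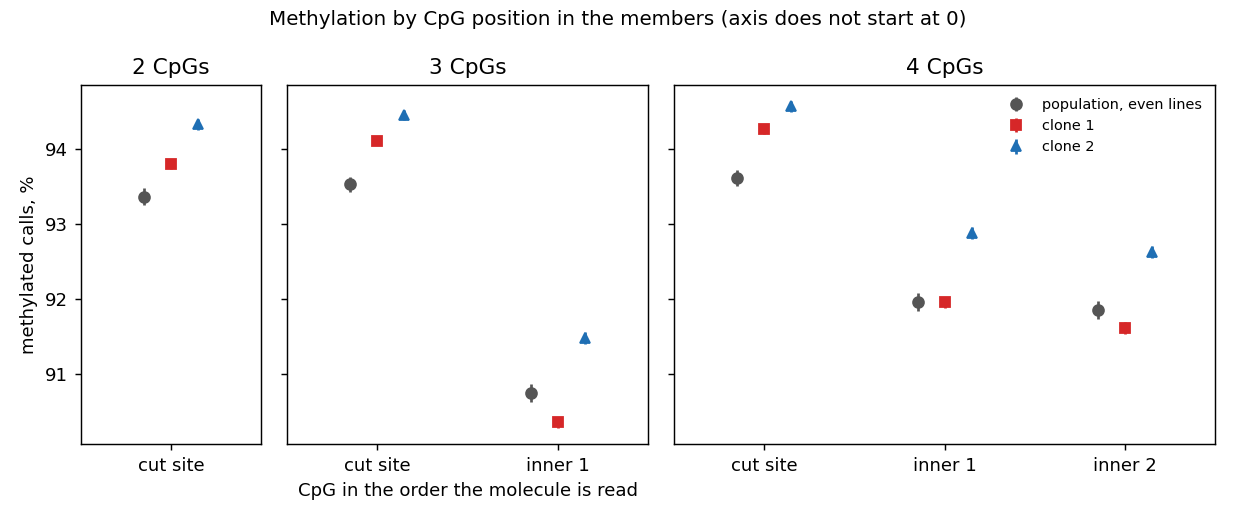
Methylated calls (vertical axis, percent, not starting at 0) by CpG in reading order, for members with 2, 3 and 4 CpGs in the 3 libraries; bars are 95% Wilson intervals of the calls and cover counting error only. The cut site is the highest position in every library, and the inner CpG of members with 3 CpGs is the lowest.

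On single molecules, unmethylated CpGs mostly stood alone, which the choice of highly methylated members largely fixes for molecules with few calls. The shares are therefore given as a description. Against other molecules of the same fragment and strand, compared in the next paragraph, unmethylated CpGs shared a molecule more often in every library. Of molecules of members with 3 CpGs that were read at the cut site and the inner CpG, those methylated at both made up 85.6% in the population, against 85.7% in clone 1 and 87.1% in clone 2. Mixed molecules, with 1 methylated and 1 unmethylated call, made up 13.3%, 13.4% and 12.2%, and molecules unmethylated at both 1.04%, 0.871% and 0.667%. Of all unmethylated calls on these molecules, 86.4%, 88.5% and 90.2% were the only one on their molecule. In members with 4 CpGs read at 3 positions, 0.254%, 0.195% and 0.158% of molecules were unmethylated throughout, and 18.6%, 18.5% and 16.7% were mixed.

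An unmethylated cut site raised the chance that the inner CpG of the same molecule was unmethylated too, and more so in the population. In members with 3 CpGs, 16.1% of population molecules with an unmethylated cut site had an unmethylated inner CpG, against 10.8% when the inner CpG was taken from other molecules of the same fragment and strand, a ratio of 1.49. The ratio was 1.20 in clone 1 (14.9% against 12.4%) and 1.18 in clone 2 (12.2% against 10.4%). In members with 4 CpGs the 2 inner CpGs had ratios of 1.73, 1.35 and 1.37. The ratios are descriptions over molecules of 1 library each and were not tested between libraries.

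Whole fragments were compared by calling a molecule methylated when more than 50% of its observed CpGs were, and by Fisher's exact test, two-sided, over every fragment of the table with 10 or more molecules in both libraries. A call needed an adjusted p under 0.05 (Benjamini-Hochberg) and a difference of 20 points or more. Of 40981 members tested, 141 (0.344%) were lower in clone 1 than in the population, against 0.346% of all 130130 fragments tested, and 30 (0.0732%) were higher, against 0.405%. In clone 2, 72 members (0.176%) were lower and 25 (0.0610%) higher, against 0.211% and 0.424% of 112852 fragments. The members' share of lower calls was therefore near that of all fragments. Nothing is read from their few higher calls, since the rule placed members above 80%. At an unadjusted p under 0.05 in the same exact test, 1100 members were lower and 1437 higher in clone 1, and 850 and 1346 in clone 2. Of all 112329 tested fragments that passed the depth rule, 2874 were lower and 4653 higher in clone 1. Their counts in clone 2 were 2263 and 4667, so higher calls were more frequent at this threshold in both sets. Among members, lower calls outnumbered higher ones only under the stricter call. With molecules of 2 or more reads alone, 14284 members were left, and 1 and 3 of them were lower in clone 1 and clone 2. At the median depth of tested members (36 molecules in clone 1, 14 in the population), a member methylated on every population molecule could be called only if at most 17 clone 1 molecules were methylated. For clone 2 this limit was 11 of 27 molecules.

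Between the clones, which are deeper, all 52979 members were tested. In clone 1, 1089 members (2.06%) were lower than in clone 2 and 950 (1.79%) higher, against 2.06% and 1.71% of all 184187 fragments tested. Members called lower in clone 1, with a median of 48.6% methylated molecules there, were at a median of 95.8% in clone 2, and those called the other way had 51.5% in clone 2 and 95.2% in clone 1. Of the 1089, 494 lay at 40 to 60% in clone 1 and 50 at 10% or less. Of the 950, 451 lay at 40 to 60% in clone 2 and 26 at 10% or less. The population stood above 60% at 996 and 881 of them, which the choice of members on its odd lines largely fixes.

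Members with 3 CpGs carried most of these calls. Lower calls in clone 1 against the population were 11 of 10801 members with 2 CpGs (0.102%), 106 of 15843 with 3 CpGs (0.669%) and 24 of 14337 with 4 CpGs (0.167%). Between the clones the shares lower in clone 1 were 1.35%, 3.59% and 0.959%. In the test of single CpGs given below, the shares by CpG number were nearer to each other. By the definition used, a molecule read at 2 CpGs with 1 of them unmethylated counts as unmethylated, and its part in the difference between CpG numbers was not tested. With molecules at exactly 50% left out, 33 members in place of 141 were lower in clone 1 than in the population, and 19 in place of 72 in clone 2. Between the clones the same setting left 407 in place of 1089 lower in clone 1 and 381 in place of 950 higher.

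The fragments with the widest differences did not share 1 layout when their CpGs were read one by one. The widest 2 of those lower in clone 1 than in the population were not low at the inner CpG alone. Fragment 1218479, with 2 CpGs, was methylated in clone 1 on 0 of 2 and 0 of 13 molecules at its cut sites, where the population had 8 of 8 and 4 of 5. Fragment 126826, with 3 CpGs, was in clone 1 at 5 of 11 at the first CpG, 5 of 14 at the inner CpG and 2 of 2 at the last. The next 3 were low at the inner CpG.

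In clone 1, fragment 704869, with 3 CpGs, had 4 methylated molecules of 51 (Wilson 95% interval 3.09 to 18.5%). It was methylated on 31 of 42 in clone 2 (58.9 to 84.7%) and on 12 of 12 in the population (75.8 to 100%). Its cut sites were methylated in clone 1 on 24 of 24 and 24 of 24 molecules, and its inner CpG on 1 of 48, against 37 of 39 in clone 2 and 12 of 12 in the population. Clone 1 was thus low at the inner CpG and at neither cut site, and clone 2 was lower at the last CpG, with 14 of 23.

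Fragment 768776 showed the same layout in clone 1. Its methylated molecules were 15 of 15 in the population, 4 of 43 in clone 1 and 33 of 34 in clone 2. The inner CpG was methylated on 3 of 42 clone 1 molecules, while the cut sites were at 20 of 20 and 18 of 18. In fragment 149498 the inner CpG was methylated on 0 of 21 clone 1 molecules and 22 of 22 clone 2 molecules, and the cut sites on 4 of 5 and 10 of 12 in clone 1.

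Clone 2 had its own cases. Fragment 276420 was methylated on 2 of 40 molecules in clone 2, 33 of 37 in clone 1 and 13 of 13 in the population. Against the population, Fisher's exact test gave clone 2 an adjusted p of 4.69e-06. Its inner CpG was methylated on 2 of 40 clone 2 molecules and its last CpG on 12 of 12. Fragment 907239 had 1 of 40 at the inner CpG in clone 2, 33 of 36 in clone 1 and 10 of 11 in the population, beside a first CpG at 14 of 14 in clone 2. Fragment 1058274 carried a departure in each clone at different CpGs: the inner CpG was at 4 of 46 in clone 2 and 56 of 58 in clone 1, and the last CpG at 16 of 28 in clone 1 and 21 of 21 in clone 2.

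Between the clones, the widest differences ran from all or nearly all molecules counted as methylated to none or few. A molecule with 1 of 2 calls methylated counts as unmethylated, so such fragments can keep methylated CpGs. Fragment 153380 had all 50 molecules methylated in clone 1 and 2 of 46 in clone 2, with 10 of 14 in the population. By share of calls its level in clone 2 was 42.2%. The adjusted p between the clones was 4.12e-20 by Fisher's exact test. In clone 2 its inner CpG was at 2 of 45, its last CpG at 15 of 24 and its first CpG at 21 of 21, so 3 CpGs of 1 fragment held 3 different levels. Fragment 1517126, with 2 CpGs, was one where both CpGs moved together: 0 of 12 and 0 of 12 in clone 1, 17 of 17 and 11 of 11 in clone 2, and 6 of 9 molecules in the population. Fragment 365840, also with 2 CpGs, had 0 of 9 and 0 of 4 in clone 1 against 21 of 21 and 8 of 8 in clone 2.

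A higher call needs a low value on even lines, so the members called higher are given as a description. The 30 higher in clone 1 had on average 47.4% methylated molecules on even lines. Fragment 1238906 had an inner CpG at 5 of 13 in the population, 48 of 50 in clone 1 and 21 of 30 in clone 2. Fragment 1482795, higher in clone 2, was low at its cut sites instead, with 2 of 6 and 1 of 9 in the population beside an inner CpG at 13 of 15. Of the 24 members with 3 CpGs that were higher in clone 1, 17 had no single CpG called in the test of single CpGs described next.

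The same test was then run on single CpGs, over all CpGs of the table with 10 or more calls in both libraries and without the rebuilt ends. It was added after the fragment calls had been seen. Of 47911 CpGs of members tested, 339 (0.708%) were lower in clone 1 than in the population, against 0.543% of all 333095 CpGs tested, and 45 (0.0939%) were higher, against 0.691%. In clone 2, 201 of 44325 (0.453%) were lower and 39 (0.0880%) higher, against 0.388% and 0.701% of 299761 CpGs. Inner CpGs were called lower in clone 1 at 0.825% (299 of 36258) and cut sites at 0.343% (40 of 11653), and in clone 2 at 0.529% (183 of 34571) and 0.185% (18 of 9754). For inner CpGs of members with 3 and 4 CpGs the shares were 0.862% and 0.802% in clone 1, and 0.544% and 0.521% in clone 2. The shares were not tested against each other, and inner CpGs, read from both strands, were deeper than cut sites.

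Between the clones, 2641 of 110239 CpGs of members (2.40%) were lower in clone 1 and 2382 (2.16%) higher, against 2.84% and 2.58% of all 775082 CpGs tested. Inner CpGs were called at 3.41% and 2.80%, cut sites at 1.61% and 1.67%. By CpG number, inner CpGs were called at 3.68% and 3.03% in members with 3 CpGs, and at 3.26% and 2.66% with 4. Cut sites called lower in clone 1 made up 1.66%, 1.62% and 1.54% at 2, 3 and 4 CpGs, and those called higher 1.61%, 1.75% and 1.64%. At the 2641 CpGs the mean level was 41.3% in clone 1 and 94.3% in clone 2, and at the 2382 it was 94.1% and 42.1%. Levels in the clone that was lower gathered around the middle of the scale: 57.1% of the 2641 lay at 40 to 60% in clone 1 and 10.4% at 10% or less, and of the 2382, 55.5% and 8.48% in clone 2. The 339 CpGs lower in clone 1 than in the population averaged 24.5% in clone 1, 88.9% on even lines and 82.3% in clone 2. The 201 lower in clone 2 averaged 23.3% there, 88.5% on even lines and 78.3% in clone 1. Against the population, where only wide differences could be called, 34.8% of the CpGs lower in clone 1 lay at 10% or less and 29.5% at 40 to 60%.

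The other CpGs of the fragment were mostly at like levels in both clones. At 2438 CpGs called lower in clone 1 whose fragment had another tested CpG, the called CpG differed from clone 2 by -52.4 points on average and the other CpGs by -3.71 points. In 318 of them (13.0%) another CpG of the fragment was called in the same direction. At 2188 CpGs called higher in clone 1, the averages were 51.3 and 1.53 points, and 254 (11.6%) had another call. In members with 2 CpGs, where only 1 other CpG exists, the shares with another call were 8.12% and 4.23%. Of all tested CpGs of members with 2 CpGs, 1.66% were called lower and 1.61% higher in clone 1, so another call was more frequent beside a call. The called CpGs lower in clone 1 had a median level of 45.5% there and the other CpGs of their fragments 94.5%. For the CpGs lower in clone 2 than in clone 1, the medians in clone 2 were 45.8% and, for the other CpGs of their fragments, 95.2%. Of 2271 members with 2 or more tested CpGs and a CpG lower in clone 1, 2120 had 1 such CpG and 31 had all their tested CpGs called. Fragment calls came apart the same way: of the 709 members with 3 CpGs whose molecules were lower in clone 1 than in clone 2, 594 had 1 CpG called lower, 42 had more than 1 and 73 had none. In 462 of the 709 the called CpG was the inner one alone. A molecule with 1 of 2 calls unmethylated counts as unmethylated, and the inner CpG is read from both strands. The definition therefore favours fragments low at the inner CpG, and its part in this count was not tested.

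Methylated fragments with 5 to 9 CpGs, chosen by the same rule, had similar values. CpGs lower in clone 1 than in clone 2 made up 2.18% of those tested, called CpGs differed by -51.8 points and the other CpGs of their fragments by -3.54 points. Fragment calls were rarer there, with 0.507% lower in clone 1 against 2.06% of members, on molecules that carry more CpGs. These values stand side by side and were not tested against each other.

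**Figure D3:**
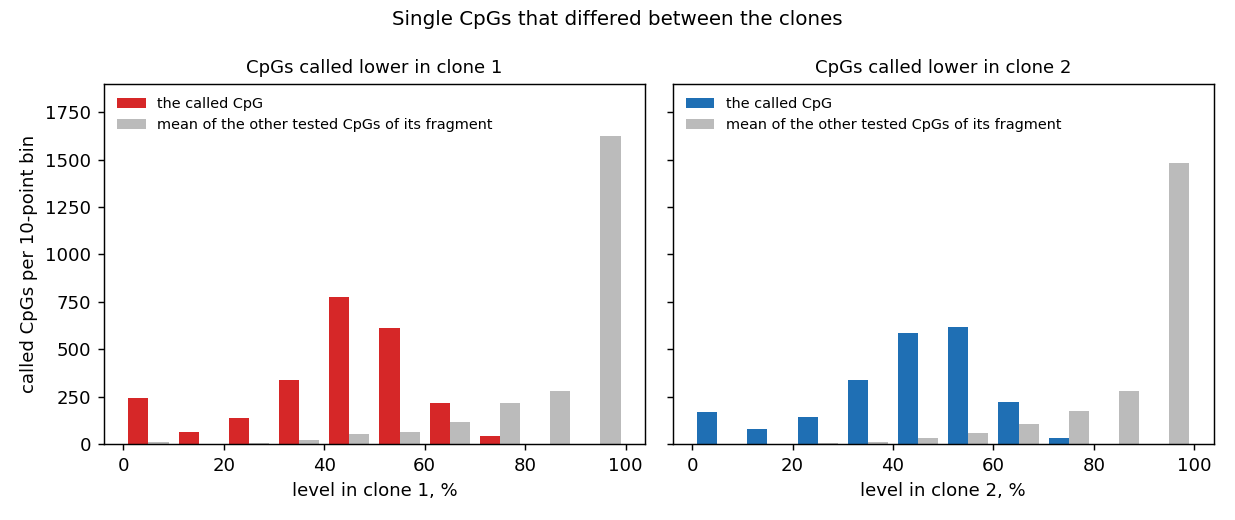
Number of called CpGs of members (vertical axis) by level in the clone that was lower (horizontal axis, percent, bins of 10 points), for the called CpG and for the mean of the other tested CpGs of its fragment. Called CpGs gather at 40 to 60% with a smaller group at 0 to 10%, and the other CpGs gather at 90 to 100%.

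The 2 strands of called inner CpGs had the same mean level. Of the inner CpGs lower in clone 1 than in clone 2, 1529 had 5 or more calls on each strand in clone 1, with means of 43.7% on the plus strand and 43.8% on the minus strand. The 2 strands of a CpG differed by 13.1 points on average, and the SD of the difference beyond counting error was 3.84 points. In 15 of the 1529 the strands were 50 points or more apart, and in 0 of them was a strand at 90% or more and the other at 10% or less. In clone 2, 1115 such CpGs had means of 45.6% and 45.0%, an SD of 3.75 points beyond counting error, and 14 with strands 50 points or more apart. Intermediate levels at these CpGs were thus present on both strands.

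Cut sites can be read again from the next fragment. Consecutive fragment numbers were taken to share a cut site, since over all fragments the last CpG of a fragment and the first CpG of the next number had a Pearson r of 0.963 across 38556 pairs in clone 1. Each reading comes from other molecules and the other strand. At 124 cut sites of members called lower in clone 1 than in clone 2 that had 5 or more such calls in each clone, the adjacent reading differed by -45.2 points (SD 22.0 over CpGs), beside -55.5 points in the call itself. It was lower at 122 of the 124, equal at 1 and higher at 1. At 130 cut sites called higher it differed by 47.0 points (SD 21.4) and was higher at 127 and equal at 3. At 6805 cut sites without a call the difference was -0.548 points (SD 12.7). A cut site shared by 2 members could enter once from each side, so the 124, 130 and 6805 are readings, not distinct CpGs. Where both readings of a CpG were called, the adjacent reading was itself a selected one.

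**Figure D4:**
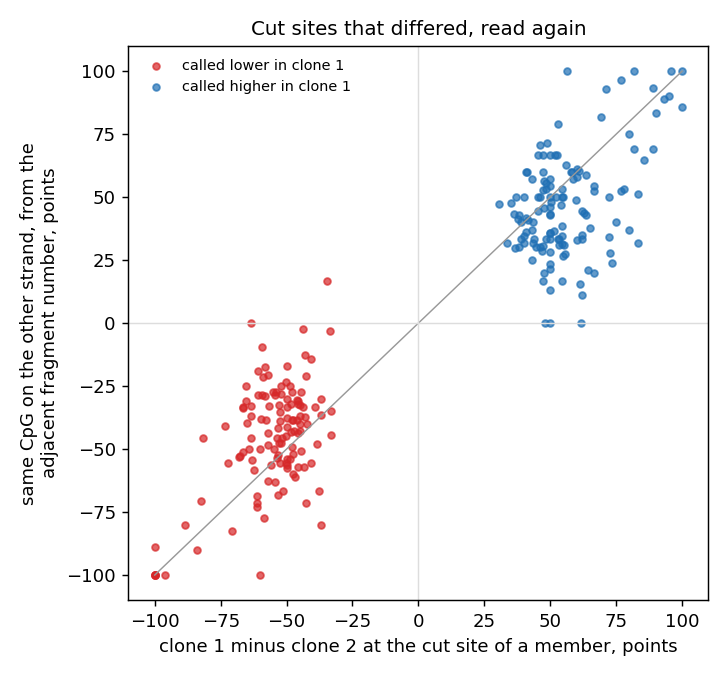
Clone 1 minus clone 2 in percentage points at 254 called cut-site readings of members (horizontal axis) and at the same CpG read from the adjacent fragment number on the other strand (vertical axis); the grey diagonal marks equal values. A CpG called from both sides appears as 2 points. Points called lower lie at the lower left and points called higher at the upper right, with 4 at 0 and 1 on the other side.

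Within a member, the 2 cut sites were nearly unrelated. The first and last CpG of the same member had an r of 0.0620 across 25724 members in the population, 0.0731 across 40934 in clone 1 and 0.0551 across 32974 in clone 2, all within a narrow range of high levels. Over all fragments, whose levels span the whole scale, the same r was 0.822 in clone 1. For shared cut sites of members, the last CpG and the first CpG of the next number, r was 0.740 in clone 1 and 0.715 in clone 2, against 0.348 in the population. For the first and last CpG of the same member, the SD of the difference beyond counting error was 15.9 points in clone 1. It was 15.8 in clone 2 and 8.49 in the population. Last CpGs of members and the first CpGs of the next number, which were taken to be the same CpGs, had SDs of 3.92 points in clone 1 and 4.81 in clone 2. In the population this estimate was negative, at -1.86, so the correction for counting error is imprecise at its depth. The rule also holds the population's levels high, and its SD was not tested against those of the clones.

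Members in which cut sites and inner CpGs stood far apart were more frequent in the clones. Among members with 3 CpGs and 10 or more calls of each kind, the cut sites were over 50 points higher in 37 of 12038 in the population, 509 of 18370 in clone 1 and 383 of 17064 in clone 2. The reverse was seen in 6, 92 and 81. With 4 CpGs the counts were nearer to each other: cut sites were over 50 points higher in 0, 104 and 96 members, and inner CpGs in 3, 75 and 91. The clones were deeper than the population, and the share of such members was not compared at equal depth. The rule, set on the population's own molecules, also limits how far apart the CpGs of a member can stand there. The counts are therefore given as a description.

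Among CpGs of members, calls between the clones were more frequent where the level in the population was lower. Of 20422 CpGs of members with 10 or more even-line calls that were all methylated, 2.51% were called between the clones (283 lower and 230 higher in clone 1). The share was 5.16% of 12761 CpGs at 90 to under 100%, 9.22% of 6691 at 80 to under 90%, 18.4% of 3645 at 60 to under 80% and 24.9% of 659 under 60%. Calls in both directions rose together, with 86 lower and 78 higher in clone 1 among the 659. Mean levels in the clones followed the population as well, from 95.5% in clone 1 and 96.1% in clone 2 in the highest class to 66.1% and 68.2% in the lowest. Median depth was 30 to 34 calls in clone 1 and 23 to 26 in clone 2 over these classes, lowest in the highest class. The same shares were not computed for CpGs of other fragments. CpGs near 100% also have less room for a difference, and its part in the rise was not tested.

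**Figure D5:**
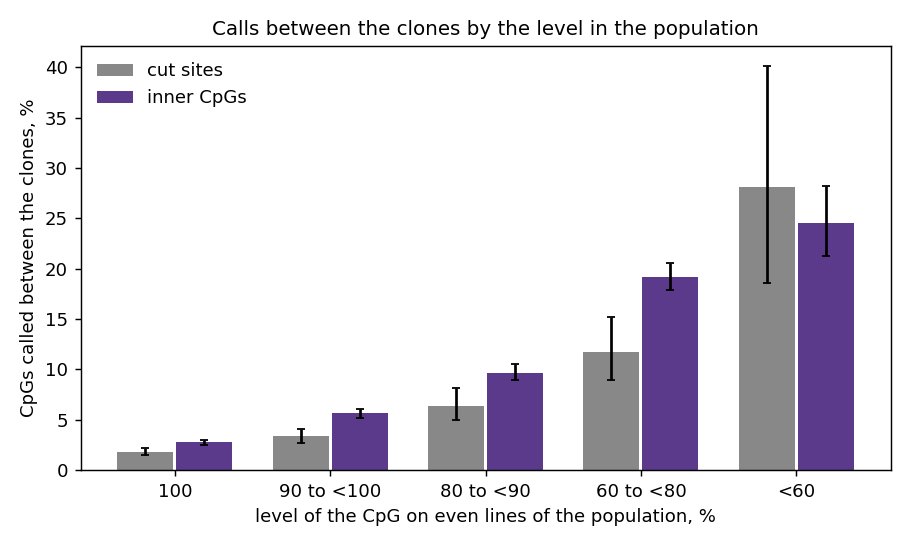
Share of tested CpGs of members called between the clones (vertical axis, percent) by their level on even lines of the population (horizontal axis, percent), for cut sites and inner CpGs; bars are 95% Wilson intervals that treat CpGs as independent. The share rises from 1.83% to 28.1% at cut sites and from 2.77% to 24.5% at inner CpGs.

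Among the deepest members, chosen on depth alone, 2 had a CpG called between libraries, and both are given last. Fragment 937722, the deepest with 2 CpGs, had 123 methylated of 126 in clone 1 (Wilson 95% interval 93.2 to 99.2%). Clone 2 had 97 of 100 (91.5 to 99.0%) and the population 64 of 65 (91.8 to 99.7%). Fragment 1194997, with 3 CpGs, had 86 of 95, 87 of 95 and 36 of 38 in the same order.

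Fragment 1100210 kept an intermediate inner CpG in every library, with 8 of 21 calls methylated in the population, 38 of 60 in clone 1 and 34 of 53 in clone 2, between population cut sites at 4 of 4 and 30 of 30. Fragment 43009 had the like at its second CpG, with 12 of 31, 16 of 45 and 8 of 21, and its last CpG at 22 of 23, 35 of 36 and 21 of 24. These inner CpGs were not called in any comparison.

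Fragment 574873, with 4 CpGs, had 15 of 15 at its first CpG in the population, 10 of 28 in clone 1 and 28 of 31 in clone 2, while its other CpGs in clone 1 were at 83 of 91, 78 of 80 and 66 of 67. Fragment 603385, with 3 CpGs, had 7 of 8 at its inner CpG in the population, 24 of 28 in clone 1 and 7 of 30 in clone 2, beside a first CpG at 50 of 51 in clone 2. Its last CpG had no calls in any library.

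Members lay among other methylated fragments. Fragments at the next or previous number, read without the shared cut site, had a mean level of 89.7% in the population (18603 neighbours), and 83.6% of them were above 80%. The mean was 84.9% at a distance of 2 numbers, 77.2% at 5, 72.1% at 10 and 67.5% at 50. CpG-rich neighbours were methylated too: those with 10 or more CpGs had a mean of 88.9% (1797 neighbours), against 32.7% over all such fragments with 5 or more calls. Fragments with 2 to 4 CpGs under 20% on odd lines had neighbours at 11.4%.

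Calls of adjacent fragments coincided rarely. Of 287 members lower in clone 1 than in clone 2 that had a tested fragment at an adjacent number, 20 (6.97%) had one called in the same direction and 3 one called in the opposite direction. Among members without that call, 1.77% had such a neighbour. The 2 fragments share a cut site, so part of these pairs rests on the same CpG.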

How the data were processed

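The deposited files list, per restriction fragment number, strand and tag, 1 string of methylation calls per molecule and a count of reads, which the authors did not normalize. Bismark and mm9 appear in the submitters' processing notes. The tool's version, its filters and how replicates were pooled are not stated there. A line was taken as 1 molecule. Each file uses 77 tags, so separate molecules can share a tag on deep strands. Strands with over 25 molecules held 2.70% of the population's member molecules, 23.9% of clone 1's and 13.5% of clone 2's.

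The members, lists and tests were chosen with earlier results of these data known. Named fragments are the 5 called members with the widest difference per comparison and direction, and the 5 deepest members of each CpG number. Some of each are given in the text. Levels are shares of methylated calls, averaged over fragments. Fisher's exact tests ran over the whole table. Intervals cover counting error only. The test was checked against scipy and tested on simulated data. Alternatives were the coverage minimum, the threshold, the lines that chose members, reads per molecule, strand, rebuilt ends, the definition of a methylated molecule and the smallest difference. Python 3.11.15, numpy 2.4.6, scipy 1.17.1, pandas 2.3.3 and numba 0.67.0 were used.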

Additional observations from a re-analysis of the deposited data

Results flagged for a closer look

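The 2 clones, which carry the same number of divisions in the labels, differed from each other by a direct test between their libraries. Under Fisher's exact test, adjusted after Benjamini-Hochberg, 950 members were higher in clone 1 than in clone 2 and 1089 were higher in clone 2, shares of 1.79% and 2.06% beside 1.71% and 2.06% of all fragments tested. On single CpGs of members, 2641 were lower and 2382 higher in clone 1, shares of 2.40% and 2.16% beside 2.84% and 2.58% of all CpGs tested. These counts were picked out because each clone is set against the other directly rather than through the population they share.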

How the results depend on the processing

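Against the population, lower calls of members outnumbered higher ones. The rule places members above 80% there, which limits how wide a higher difference can be. The order of the calls under other settings is therefore not given as support. At an unadjusted p under 0.05 in the exact test the order was the opposite, with 1100 lower and 1437 higher in clone 1. Over all 112329 tested fragments that passed the depth rule, 2874 were lower and 4653 higher there. Of 137 values computed under alternatives, 52 stayed within 1.5 times the reported count or within the counting interval of the reported level and 85 moved. Over all CpG numbers and positions together, the differences between each clone and the population in mean level stayed above 0 in the settings run. For clone 1 the difference was -0.0326 points in members with 4 CpGs and -0.186 points at inner CpGs. The cause of these moves was not tested, and some settings use fewer fragments or molecules.

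With 20 or more molecules per clone and 10 or more per part of the population (28284 members), 22 and 14 members were lower in clone 1 and clone 2 than in the population, 8 and 4 were higher, 145 and 106 were under 50%, and clone 2 was 0.907 points above the population. Members above 90% on odd lines (38402) had a mean of 93.9% in the population, with clone 1 0.153 and clone 2 0.744 points above it. There 65 and 20 members were lower, 9 and 6 higher, 123 and 99 under 50%, and 489 and 554 higher in clone 1 and in clone 2 than in the other clone. Of single CpGs of members above 90%, 161 and 92 were lower and 5 and 9 higher than in the population, and 1324 lower and 1215 higher in clone 1 than in clone 2.

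Molecules with 2 or more reads (14284 members) gave a population mean of 92.3%, differences of 0.320 and 1.06 points, 98 and 74 members under 50%, 1 and 3 members lower, 0 and 0 higher, and 51 and 64 higher in clone 1 and in clone 2 than in the other. Their single CpGs gave 4 and 6 lower, 0 and 0 higher, and 235 lower and 161 higher in clone 1 than in clone 2. The plus strand alone gave a mean of 92.6%, 19 and 5 lower, 1 and 1 higher, 291 and 342 between the clones, and 178 members under 50% in clone 2. The minus strand alone gave 92.7%, differences of 0.00950 and 0.664 points, 11 and 6 lower, 0 and 1 higher, and 304 and 366 between the clones. Without the rebuilt ends the mean was 92.5% and clone 2 was 0.904 points above it.

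Requiring all observed CpGs of a molecule to be methylated gave 285 and 145 lower, 66 and 64 higher, and 1607 and 1847 between the clones. Leaving out molecules at exactly 50% gave 33 and 19, 4 and 1, and 381 and 407. With 1 call per molecule from the deepest CpG, 289 and 153 members were lower. A difference of 40 points or more left 542 and 673 between the clones. Swapping odd and even lines gave 47 members and 68 single CpGs higher in clone 1 than in the population.

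The single-CpG test and its settings were chosen after seeing the data. With 20 or more calls of a CpG in both libraries, 33 and 16 were lower, 6 and 4 higher, and 1481 higher in clone 1 than in clone 2. The mean over single CpGs with 5 or more calls in each library (116141 CpGs) was 92.6%, with clone 1 0.157 points above it. On that footing clone 1 was 0.428 points above the population at cut sites and -0.186 points from it at inner CpGs.

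No paired analysis was possible because both replicates of a clone are pooled in the same file and the population has 1 replicate. Leaving out a replicate was not run, as the replicates have no files of their own. Depth limits the comparisons with the population, where the median member had 13 molecules.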
